A study of Mus musculus with 2 samples.

Results

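Oxidative phosphorylation subunits encoded in the nucleus were described in the limb of the mouse, strain C57BL/6J, at day 14.5 of embryonic life. The members were the protein-coding genes of the deposited gene tables whose GENCODE M21 symbol follows the naming of NADH dehydrogenase (Ndufa, Ndufb, Ndufc, Ndufs and Ndufv with a number), succinate dehydrogenase (Sdha to Sdhd), the cytochrome bc1 complex (Uqcr names and Cyc1), cytochrome c oxidase (Cox4 to Cox8 names) or ATP synthase (Atp5 names). This rule took 84 genes of 21474 protein-coding genes and 43346 gene rows in all. By complex these were 36 genes of complex I, 4 of complex II, 9 of complex III, 18 of complex IV and 17 of complex V. The rule uses names alone. It takes Atp5s, a coupling factor that is not counted among the core ATP synthase subunits, and it leaves out the complex I subunit Ndufab1 and the Ndufa4 relative Ndufa4l2.

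The libraries were stranded and paired-end, made from polyadenylated RNA over 200 nucleotides long. Both samples belong to the same group as biological replicates 1 and 2. Each pooled littermates of both sexes, and the labels name no altered genotype, treatment or second age. What could be compared was therefore the level of genes with each other in the tissue and the level of each gene between the 2 libraries. Whether the pools came from separate litters and which limbs were taken is not given in the labels, so the spread between the libraries may be partly technical.

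The respiratory chain passes electrons from NADH through complex I, or from succinate through complex II, to complex III and then by cytochrome c to complex IV, which reduces oxygen. Complexes I, III and IV pump protons across the inner mitochondrial membrane, and ATP synthase, complex V, lets them return to make ATP. Mitochondrial DNA encodes a few central subunits and nuclear genes encode all the others. Some complex IV subunits come in pairs of genes, with a form used mainly in heart and skeletal muscle (Cox6a2, Cox7a1 and Cox8b) and a general form used in most tissues (Cox6a1, Cox7a2 and Cox8a).

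In these limbs the general complex IV forms Cox6a1, Cox7a2 and Cox8a far exceeded their muscle forms. Of the 84 genes, 82 were detected at 1 TPM or more in both libraries, where TPM is a level per transcript length scaled to the whole library. Of all protein-coding genes, 62.8% passed the same bar. At least 100 TPM in both libraries was reached by 58 members, against 5.81% of all protein-coding genes. The median member stood at 166 TPM by the mean of both libraries, at 190 TPM in replicate 1 and 155 TPM in replicate 2, while the median detected protein-coding gene stood at 19.9 TPM.

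The libraries held 110172148 counts in replicate 1 and 103363136 counts in replicate 2, of which the members took 966760 and 819269. That is 0.877% of counts in replicate 1 (95% Wilson interval 0.876 to 0.879) and 0.793% in replicate 2 (0.791 to 0.794), intervals that cover counting error only. The mean share was 0.835% ± 0.0600 of counts and 2.10% ± 0.0704 of TPM (SD, n = 2). Over the 82 members whose mean reached 1 TPM, log2 TPM in replicate 1 and replicate 2 correlated across genes with Pearson's r of 0.967 and Spearman's rho of 0.947. Genes are not independent replicates, and these values describe the 2 libraries.

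The tissue label was set against marker genes. Of 6 limb markers, 6 were detected, with Col2a1, a cartilage collagen, at 1369 and 1622 TPM, Krt14, an epidermal keratin, at 244 and 195 TPM, and Hoxd13, a distal limb transcription factor, at 90.7 and 122 TPM in replicates 1 and 2. Of 12 skeletal muscle markers, 12 were detected, led by Actc1 with 1117 and 1147 TPM, Mylpf with 917 and 453 TPM and Acta1 with 686 and 654 TPM. Of 5 erythroid markers, 5 were detected, led by the globin genes Hbb-bs with 6730 and 6003 TPM and Hba-a1 with 3430 and 3965 TPM, then Alas2 with 20.7 and 23.2 TPM. Of 5 heart markers, 0 were detected, with Myh6 the highest at 0.56 and 0.31 TPM, then Myl7 at 0.31 and 0.16 TPM, Nppa at 0 and 0.27 TPM, Nkx2-5 at 0.05 and 0.12 TPM and Tbx20 at 0.12 and 0.03 TPM. The tissue is a mixture of cells, and fewer cells of a type cannot be told apart from less RNA per cell.

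**Figure D1:**
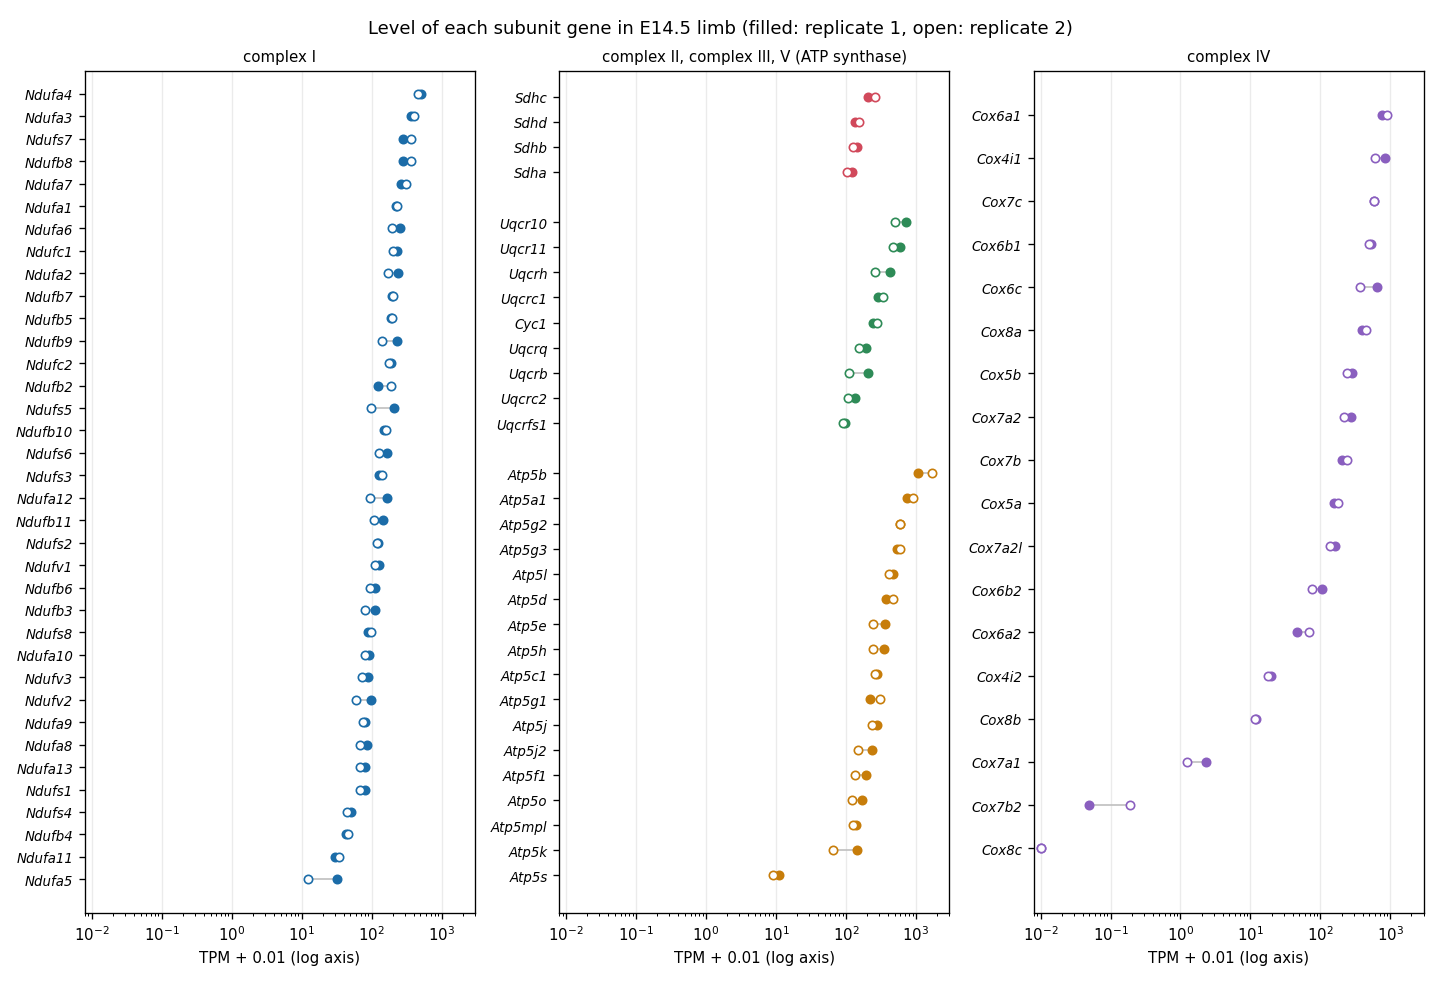
TPM plus 0.01 on a log axis for each of the 84 subunit genes, grouped by complex and ordered by mean, with filled points for replicate 1 and open points for replicate 2. Most genes lie near or above 100 TPM in both libraries, and the muscle and other tissue forms of complex IV sit at the foot of that panel, down to Cox8c with 0 counts.

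Complex I, NADH dehydrogenase, had a median of 132 TPM over 36 genes (136 TPM in replicate 1, 116 TPM in replicate 2), and all 36 were detected. Its highest gene by name was Ndufa4, first described in complex I and since assigned to complex IV, with 501 TPM in replicate 1 and 455 TPM in replicate 2. Ndufa3, a small accessory subunit, followed with 371 and 403 TPM, and Ndufs7, which carries the last iron-sulfur cluster before quinone, with 281 and 367 TPM. The lowest was Ndufa5, an accessory subunit of the peripheral arm, with 32.3 TPM in replicate 1 and 12.2 TPM in replicate 2. Means ranged from 22.3 to 478 TPM, or to 387 TPM without Ndufa4, and 20 of 36 genes were above 100 TPM in both libraries.

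The 7 nuclear genes of the complex I core, which hold the flavin and the iron-sulfur clusters or line the quinone site, had a median of 119 TPM and ran from Ndufs1 at 73.8 TPM to Ndufs7 at 324 TPM. The other 29 genes of complex I, with Ndufa4 included by its name, had a median of 154 TPM and ran from 22.3 to 478 TPM. The 2 ranges overlapped over most of their width. These groupings by role, here and for complexes III to V, follow textbook assignments and were drawn up after the values had been seen, as were the names of Ndufs1, Cyc1, Atp5d, Atp5e, Atp5f1, Atp5h, Atp5j, Atp5o and Atp5l.

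Ndufv1 and Ndufv2 are partners at the entry site of electrons from NADH. Ndufv1 had 126 and 112 TPM in replicates 1 and 2, and Ndufv2 had 98.4 and 60.1 TPM. Ndufv1 was higher in both libraries, with a log2 difference of 0.62 ± 0.25 (SE, n = 2) and an interval of -0.01 to 1.25. This did not pass the test (limma, adjusted p = 0.0596 over 17 pairs). It passed among genes with a mean of 10 TPM or more (adjusted p = 0.0360 in limma) and by CPM (adjusted p = 0.0208 in limma).

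Complex II, succinate dehydrogenase, has 4 subunits, all nuclear, and the 4 genes had a median of 141 TPM in each library. The membrane anchor Sdhc was highest with 204 and 257 TPM in replicates 1 and 2. Its anchor partner Sdhd had 136 and 154 TPM. The iron-sulfur subunit Sdhb had 146 and 127 TPM, and the flavoprotein Sdha was lowest with 121 and 102 TPM. The 4 genes spanned a 2.07-fold range, and each had over 100 TPM in both libraries. Sdhc exceeded Sdhd by 0.66 ± 0.22 on the log2(TPM + 1) scale (limma, adjusted p = 0.0412). Sdha and Sdhb differed by -0.29 ± 0.21 (interval -0.82 to 0.24, limma, adjusted p = 0.232). By CPM, which is not divided by length, the direction turned, to 0.98 (limma, adjusted p = 0.000531), and Sdha, with a transcript of 2430 nucleotides against 1137 for Sdhb, had 184 and 157 CPM, no longer the lowest of complex II (Sdhc had 142 and 157 CPM).

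Complex III had a median of 259 TPM over 9 genes, with 242 TPM in replicate 1 and 260 TPM in replicate 2. By TPM the 3 highest genes were small subunits. Uqcr10 had 722 and 497 TPM, Uqcr11 had 597 and 468 TPM, and Uqcrh, the hinge protein that contacts cytochrome c1, had 424 and 260 TPM. The 5 small subunits had a median of 342 TPM, against 177 TPM for the pair that carries electrons to cytochrome c. That pair is Cyc1, cytochrome c1, with 242 and 276 TPM, and Uqcrfs1, the Rieske iron-sulfur protein, the lowest of the complex by TPM with 97.7 and 91.9. By CPM, which is not divided by length, the order turned. Uqcrc1 and Cyc1 were then highest, with 278 and 322 CPM and with 164 and 181 CPM in replicates 1 and 2. Uqcr10 had 117 and 70.9 CPM, and the lowest was the small subunit Uqcrb with 47.1 and 22.9 CPM.

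Uqcrc1 and Uqcrc2, the core proteins of complex III, are related to mitochondrial processing peptidase. Uqcrc1 had 288 and 336 TPM in replicates 1 and 2, and Uqcrc2 had 136 and 106 TPM. The gene ranges did not overlap. The mean of Uqcrc1 was 2.58 times that of Uqcrc2, a log2 difference of 1.37 ± 0.23 (limma, adjusted p = 0.00303).

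Complex IV, cytochrome c oxidase, had 18 genes with a median of 194 TPM (180 TPM in replicate 1, 199 TPM in replicate 2), and as a fold between its highest and lowest detected gene, 457-fold, its range was the widest of the complexes. Cox6a1 was highest with 750 and 887 TPM, followed by Cox4i1, a large subunit that binds ATP, with 846 and 601 TPM, and Cox7c, a small membrane subunit, with 579 and 583 TPM. The 10 genes that are general forms or have no paired form lay between 168 TPM for Cox5a and 819 TPM for Cox6a1, with a median of 462 TPM, and 10 of 10 passed 100 TPM in both libraries. The 7 muscle and other tissue forms had a median of 11.8 TPM, and 0 of 7 passed that bar in both. Cox5a and Cox5b, the subunits on the matrix side, had 158 and 179 TPM against 285 and 238 TPM, a log2 difference of -0.63 ± 0.22 (limma, adjusted p = 0.0427).

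Complex V had a median of 269 TPM over 17 genes and held the highest member of all. Its median was above that of complex III in replicate 1, at 278 against 242 TPM, and below it in replicate 2, at 242 against 260 TPM. Atp5b, the catalytic beta subunit, had 1070 and 1707 TPM in replicates 1 and 2. Atp5a1, the alpha subunit, had 741 and 900 TPM. Atp5a1 was the lower in both libraries by -0.73 ± 0.29 on the log2 scale, which did not pass the test (interval -1.46 to 0.01, limma, adjusted p = 0.0596). It passed among genes with a mean of 10 TPM or more (limma, adjusted p = 0.0363) and without the trend (limma, adjusted p = 0.0316), while by CPM the difference was -0.09 (limma, adjusted p = 0.723). The 5 genes of the F1 head and central stalk, which also include Atp5c1, Atp5d and Atp5e (the gamma, delta and epsilon subunits), had a median of 421 TPM.

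The c ring, which rotates as protons pass, is encoded by Atp5g1, Atp5g2 and Atp5g3, with a median of 563 TPM. The peripheral stalk holds the head still. Its 4 genes Atp5f1, Atp5h, Atp5j and Atp5o had a median of 209 TPM and ran from 148 to 298 TPM. The 4 small membrane subunits Atp5l, Atp5k, Atp5j2 and Atp5mpl had a median of 162 TPM. Among these, Atp5l was highest at 441 TPM and Atp5k lowest at 105 TPM. Atp5s was the lowest gene of the complex with 11.2 and 9.16 TPM.

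The muscle forms were low in every pair. Cox6a2 (ENSMUSG00000030785, chr7:128205435-128206387 in GRCm38, minus strand) had 46.5 TPM in replicate 1 and 68.3 TPM in replicate 2, from 1602 and 2060 counts. Its general partner Cox6a1 (ENSMUSG00000041697, chr5:115345642-115348981, minus strand) had 750 and 887 TPM. The mean of Cox6a1 was 14.3 times that of Cox6a2, a log2 difference of -3.83 ± 0.25 for Cox6a2 over Cox6a1 (limma, adjusted p = 3.67e-05). Cox6a2 made up 5.84% and 7.15% of the TPM of the pair.

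Cox8b (ENSMUSG00000025488, chr7:140898945-140900446, minus strand) had 11.9 and 11.7 TPM from 146 and 111 counts, and Cox8a, the general form, had 395 and 446 TPM. The log2 difference was -5.04 ± 0.20 (limma, adjusted p = 3.94e-06), and Cox8b made up 2.93% and 2.55% of the pair. Cox7a1 (ENSMUSG00000074218, chr7:30184144-30186078, plus strand) was lower still, with 2.34 and 1.24 TPM from 29 and 12 counts. Its partner Cox7a2 had 273 and 219 TPM, a log2 difference of -6.49 ± 0.24 (limma, adjusted p = 3.75e-06). Cox7a1 made up 0.850% and 0.564% of the pair. Summed over the 3 pairs, the muscle forms reached 60.8 and 81.2 TPM, against 1418 and 1552 TPM for the general forms.

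**Figure D2:**
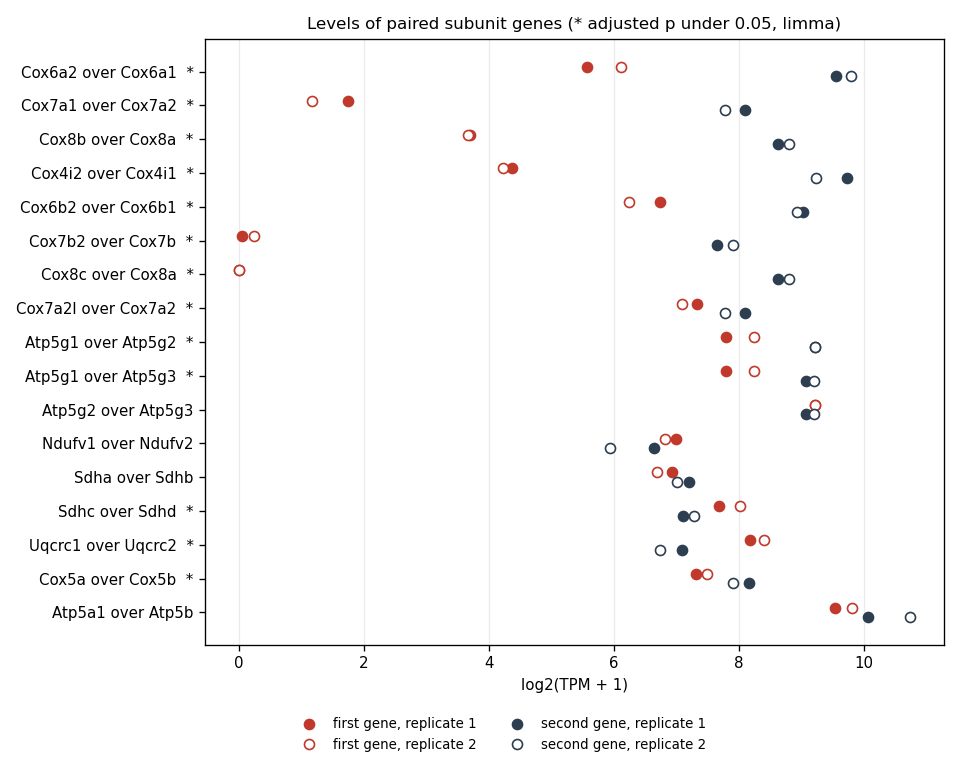
log2(TPM + 1) of both genes in each of 17 pairs, with the first-named gene in red and the second in dark blue, filled points for replicate 1, open points for replicate 2, and an asterisk at an adjusted p under 0.05. The muscle forms Cox6a2, Cox7a1 and Cox8b stand far left of their general partners, and Atp5g2 and Atp5g3 lie together.

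Other tissue forms of complex IV were measured in the same way. Cox4i2, known from lung, had 19.7 and 17.7 TPM in replicates 1 and 2, and Cox4i1 had 846 and 601 TPM. The mean of Cox4i1 was 38.6 times that of Cox4i2, with a log2 difference of -5.18 ± 0.23 (limma, adjusted p = 6.25e-06). Cox4i1 overlaps Gm20388 on the same strand, a gene listed at 40.7 and 51.2 TPM.

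Cox6b2, known from testis, was the highest of the tissue forms. It had 105 and 74.8 TPM in replicates 1 and 2, against 520 and 487 TPM for Cox6b1, the general form, and took 16.9% and 13.3% of the pair. The log2 difference was -2.49 ± 0.24 (limma, adjusted p = 0.000224). The other testis forms were near 0. Cox7b2 had 1 and 4 counts (0.04 and 0.18 TPM), where Cox7b had 201 and 239 TPM (limma, adjusted p = 1.23e-06). With 0.1 added to TPM in place of 1, the log2 difference moved from -7.63 to -10.1 (limma, adjusted p = 0.000125). Its size and p thus depend on that choice. Cox8c was listed at 0 counts, and its log2 difference from Cox8a moved likewise, from -8.72 to -12.0. A floor of 3 counts in each library corresponds to 0.144 and 0.172 TPM, so Cox8c was at least 2737-fold and 2592-fold lower than Cox8a in replicates 1 and 2. Of 5 male germ cell markers, 0 were detected. Ddx4 had 0.61 and 0.46 TPM, Dazl 0.07 and 0.05 TPM and Ldhc 0.05 and 0.05 TPM, while Prm1 and Tnp1 had 0 counts.

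Cox7a2l, a relative of Cox7a2 that has been linked to supercomplexes of complexes III and IV, had 160 and 135 TPM, against 273 and 219 TPM for Cox7a2. Its function in this strain was not examined. The log2 difference was -0.73 ± 0.22 (limma, adjusted p = 0.0324). CPM, counts scaled to the library but not divided by length, gave -0.05 with an adjusted p of 0.783, so this call rests on the length scaling. Of the 17 pairs, 13 passed the test, and 17 of 17 kept their sign in both libraries. The share of pairs of other genes that would pass was not computed, so these counts describe the listed pairs only. Without a filter on low values, 7 pairs passed: the 3 muscle pairs and the pairs of Cox4i2, Cox6b2, Cox7b2 and Cox8c.

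The c subunit genes differ in sequence but not in the mature protein they encode. The last 78 codons before the stop specify the same residues in all 3 genes, and the codons ahead of them, 58 in Atp5g1, 68 in Atp5g2 and 63 in Atp5g3, hold the part that directs import and is then removed. The last 60 coding bases with the stop codon are shown from GENCODE M21 transcripts (GRCm38), since reads of these genes are told apart by such bases. Capitals mark the 17 of 60 positions where the genes differ.
Atp5g1 (chromosome 11, minus strand): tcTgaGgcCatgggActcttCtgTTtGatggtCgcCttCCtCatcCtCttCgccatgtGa
Atp5g2 (chromosome 15, minus strand): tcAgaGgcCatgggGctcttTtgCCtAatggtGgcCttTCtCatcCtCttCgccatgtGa
Atp5g3 (chromosome 2, minus strand): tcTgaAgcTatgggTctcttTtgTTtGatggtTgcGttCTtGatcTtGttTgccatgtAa
Over the 237 bases of the shared codons and the stop, Atp5g1 and Atp5g2 were 84.8% identical, Atp5g1 and Atp5g3 78.5%, and Atp5g2 and Atp5g3 77.2%. The deposited counts of Atp5g1 and Atp5g2 were not whole, the sign that some reads were shared with other genes.

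Atp5g2 and Atp5g3 carried most of the c subunit RNA. Atp5g1 had 221 and 302 TPM in replicates 1 and 2, Atp5g2 had 594 and 590 TPM and Atp5g3 had 538 and 588 TPM. Atp5g1 was lower than Atp5g2 by a log2 difference of -1.19 ± 0.24 (limma, adjusted p = 0.00703) and than Atp5g3 by -1.12 ± 0.24 (limma, adjusted p = 0.00855). Atp5g2 and Atp5g3 differed by 0.07 ± 0.23, with an interval of -0.51 to 0.66 (limma, adjusted p = 0.764). The 3 genes summed to 1416 ± 90.4 TPM (SD, n = 2), of which Atp5g1 made 16.3% and 20.4%, Atp5g2 43.9% and 39.9%, and Atp5g3 39.8% and 39.7%.

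Atp5c1, the gamma subunit that turns inside the F1 head, differs between muscle and other tissues by splicing rather than by gene. Skipping a cassette exon of 37 nucleotides (chr2:10056770-10056806, GRCm38, minus strand of the gene, 4 coding bases and otherwise 3′ UTR) gives the form known from heart and skeletal muscle, which ends 1 residue earlier. The ends of both coding sequences are shown from GENCODE M21, because the proteins of the forms differ there. Capitals mark the bases after the shared exon.
Atp5c1 muscle form, 297 codons: aatcatctctggggctgctgctctGTAA
Atp5c1 general form, 298 codons: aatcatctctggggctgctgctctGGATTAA
The muscle form had 85.8 and 83.6 TPM in replicates 1 and 2, and the general form had 191 and 177 TPM. Of the summed TPM of both forms, the muscle form made up 31.0% in replicate 1 and 32.1% in replicate 2, 31.5% ± 0.770 (SD, n = 2). Of the TPM of all transcripts of the gene it made up 30.9% and 32.0%. By counts of both forms it held 28.4% and 29.4%. The muscle transcript is 1060 nucleotides long and the leading general transcript 1166, a gap wider than the cassette exon, so they differ elsewhere too. How far these shares rest on the exon itself was not tested.

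**Figure D3:**
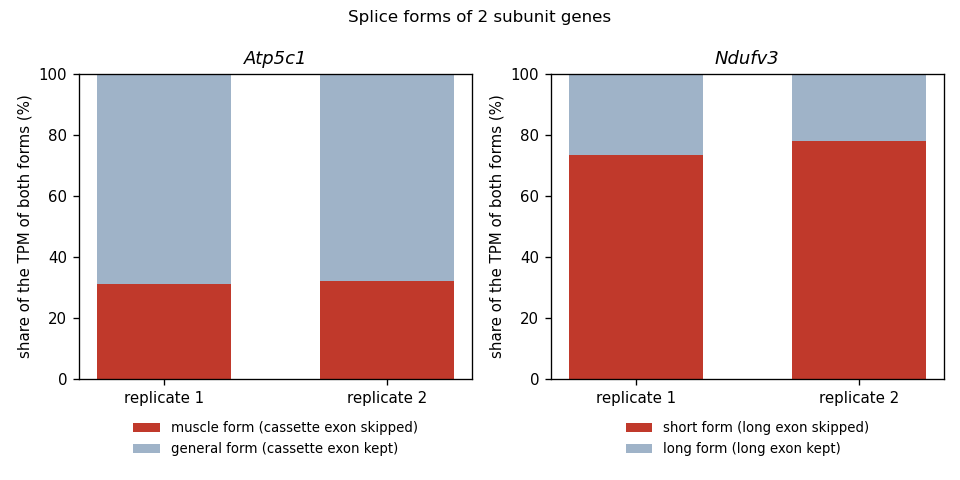
Share of the summed TPM of both forms, in percent, for the splice forms of Atp5c1 and Ndufv3 in replicates 1 and 2, with the skipped form in red below the kept form in grey. The muscle form of Atp5c1 takes 31.0% and 32.1%, and the short form of Ndufv3 takes 73.3% and 77.9%.

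Ndufv3, a complex I accessory subunit of the NADH-oxidising arm, was added after its values were seen because its short form is also known from muscle. The long form keeps an exon of 1092 nucleotides (chr17:31527310-31528401, GRCm38). The short form had 64.6 and 55.0 TPM, and the long form had 23.5 and 15.6 TPM. The short form took 73.3% and 77.9% of the summed TPM of both forms (75.6% ± 3.22, SD, n = 2), and 71.6% and 76.4% of the TPM of all transcripts of the gene. By counts the order turned round: the short form took 37.0% and 41.0%, from 1387 and 994 counts in replicates 1 and 2. The deposited lengths were 485 nucleotides for the short transcript and 1537 for the long one, and TPM divides by length where counts do not.

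The muscle markers were mostly higher in replicate 1, while the 3 muscle forms lay on both sides of an equal level. Of 12 skeletal muscle markers, 11 were higher in replicate 1 and 8 were past 1.5-fold by TPM (11 and 7 by CPM with TMM scaling), and their summed level was 3682 TPM in replicate 1 and 2828 TPM in replicate 2. Tnnt3, fast troponin T, had 93.9 and 32.0 TPM and Tnni2, fast troponin I, had 129 and 49.7 TPM (both named after their values were seen). Over all protein-coding genes whose mean reached 1 TPM, 6.19% were past 1.5-fold toward replicate 1 by TPM and 5.98% by CPM with TMM scaling. By TPM this share was 19.2% for genes of up to 1000 nucleotides and 4.97% for longer genes. Of the markers past the fold, Tnnt3, Tnni2, Mylpf and Tnnc2 were of the short kind, and Ttn, Myh3, Myh8 and Ckm were longer. Cox6a2 was higher in replicate 2, with 46.5 and 68.3 TPM, a log2 ratio of -0.55 for replicate 1 over replicate 2. Cox8b had a log2 ratio of 0.03, and Cox7a1 one of 0.92 on 29 and 12 counts. The general forms had log2 ratios of -0.24 for Cox6a1, 0.32 for Cox7a2 and -0.17 for Cox8a. The part of muscle content in these ratios was not tested.

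**Figure D4:**
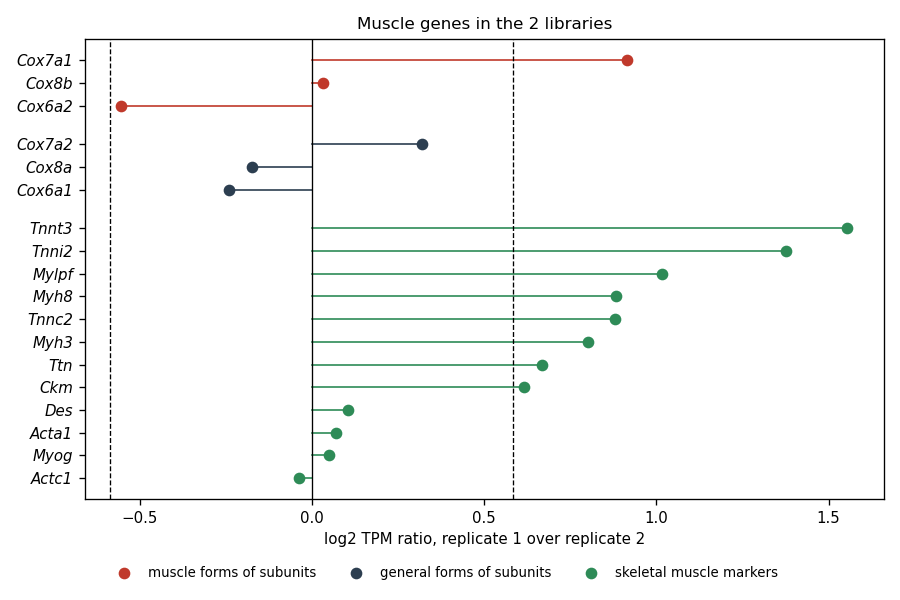
log2 ratio of TPM in replicate 1 over replicate 2 for the muscle forms in red, the general forms in dark blue and 12 skeletal muscle markers in green, with dashed lines at 1.5-fold. The markers lie mostly right of 0, up to Tnnt3, while Cox6a2 lies left of 0 at -0.55 and Cox8b close to it at 0.03.

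Brown fat also uses Cox7a1 and Cox8b. Of 4 brown fat markers, 1 was detected, Cidea, with 1.12 and 1.11 TPM in replicates 1 and 2. The defining gene Ucp1, the uncoupling protein, had 0.05 and 0.06 TPM, Adipoq had 0.23 and 0.31 TPM and Elovl3 had 0.02 and 0.14 TPM.

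Between the 2 libraries the members leaned toward replicate 1. Of the 82 members whose mean reached 1 TPM, 54 were higher in replicate 1 and 28 in replicate 2, and their median log2 ratio of replicate 1 over replicate 2 was 0.17, where that of all protein-coding genes at this level was -0.03. Past 1.5-fold were 13 members, against 9.25% of all protein-coding genes. Of these, 11 were higher in replicate 1 (background 6.19%) and 2 in replicate 2 (background 3.06%). By CPM with TMM scaling, 14 members were past 1.5-fold (background 7.62%), 14 of them higher in replicate 1 (background 5.98%) and 0 in replicate 2 (background 1.64%). These ratios set 1 library against 1 library and have no replicate check.

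Many subunits are small proteins with short transcripts, and the members' median deposited length was 728 nucleotides. Among the 59 members of up to 1000 nucleotides, 10 were past 1.5-fold in replicate 1 and 1 in replicate 2, while 26.2% of all protein-coding genes of that length were past it, 19.2% in replicate 1 and 7% in replicate 2. Set against genes of the same length, the share of members past the fold by TPM was not above the background. That background was matched on length but not on level, and it was not computed by CPM. The median log2 ratio of these short members was 0.17, against 0.10 for all genes of that length. Among the 23 longer members, 1 was past 1.5-fold in each direction, against 7.67% of longer genes either way, 4.97% in replicate 1 and 2.69% in replicate 2. Their median log2 ratio was 0.18, against -0.03 for all longer genes.

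**Figure D5:**
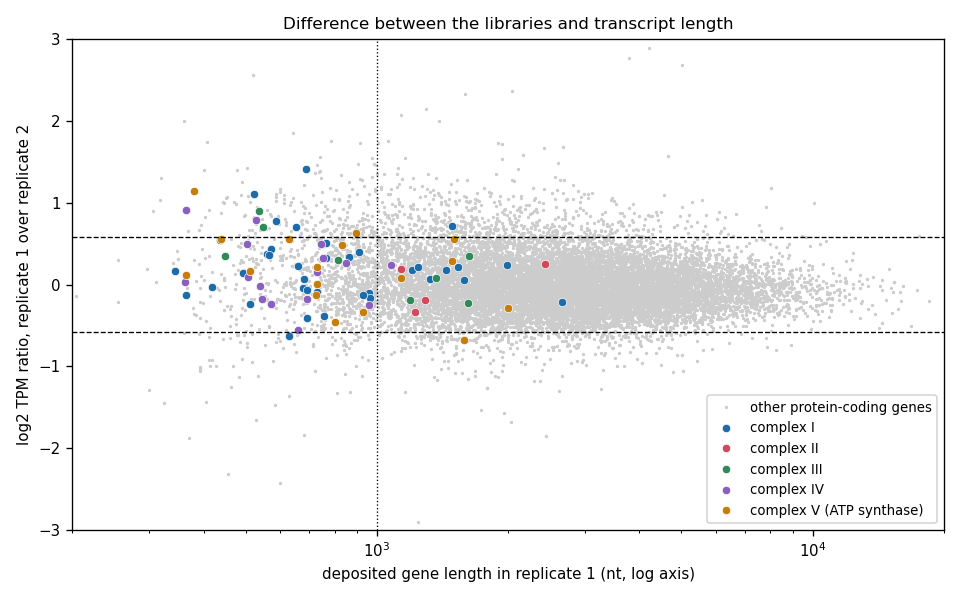
log2 TPM ratio of replicate 1 over replicate 2 against deposited gene length on a log axis, with subunit genes coloured by complex, other protein-coding genes at this level in grey, dashed lines at 1.5-fold and a dotted line at 1000 nucleotides (6 genes lie beyond the vertical axis). The spread is wider at short lengths for both, and 10 of the 11 members past 1.5-fold in replicate 1 lie left of the dotted line.

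In complex I the members past 1.5-fold toward replicate 1 were Ndufa5 with 32.3 and 12.2 TPM, Ndufs5 with 211 and 97.4 TPM, Ndufa12 with 165 and 96.0 TPM, Ndufv2 with 98.4 and 60.1 TPM, and Ndufb9 with 232 and 143 TPM in replicates 1 and 2. Ndufs5, Ndufa12 and Ndufb9 are accessory subunits. In complex III they were Uqcrb, which lies at the quinone site, with 205 and 110 TPM, and Uqcrh. In complex IV they were Cox6c, a small membrane subunit, with 638 and 368 TPM, and Cox7a1. In complex V they were Atp5k, the e subunit of the dimer interface, with 145 and 65.5 TPM, and Atp5j2, the f subunit, with 233 and 150 TPM. Complex II had none. Past 2-fold were 3 members, Ndufa5, Atp5k and Ndufs5, and all 3 were higher in replicate 1. The share of all protein-coding genes past 2-fold was not computed.

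The 2 members past 1.5-fold toward replicate 2 moved with the scaling. Ndufb2, a complex I accessory subunit, had 124 and 191 TPM, a log2 ratio of -0.63, and -0.27 by CPM with TMM scaling. Atp5b had a log2 ratio of -0.67 by TPM and 0.02 by CPM with TMM scaling. Its counts, 111264 and 101574, were close, but its effective length was 1386 nucleotides in replicate 1 and 852 in replicate 2. A transcript of 343 nucleotides took 12.4% of the gene's TPM in replicate 1 and 43.5% in replicate 2, and the full transcript of 1916 nucleotides took 72.1% and 38.3%. The rank of Atp5b as the highest member held in both libraries by TPM.

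Of the 84 members, 28 have 1 transcript. Of the 56 with several transcripts and more than 4 counts, the leading transcript was the same in both libraries for 53 and differed for 3: Atp5b, Ndufb5 and Ndufs1. Counts of 15 members were not whole, and 2 members, Cox4i1 and Ndufa13, overlap a detected gene on the same strand. On the opposite strand, 18 members overlap a gene whose mean reached 1 TPM. Whether the counting used strand is not stated, so reads of such partners may be mixed.

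The promoters of a muscle form and of general forms are shown because these forms of complex IV subunits differ widely in level. Each is the 250 bases before the start of transcription in RefSeq (GRCm38.p6), read on the strand of the gene. Capitals mark a match to the NRF1 motif (GCGC, any base, then TGCGC), the ETS motif CCGGAAG that GABP binds, or the E-box CAGCTG that myogenic factors bind, on either strand.
Cox8b promoter (chr7:140900447-140900696, minus strand): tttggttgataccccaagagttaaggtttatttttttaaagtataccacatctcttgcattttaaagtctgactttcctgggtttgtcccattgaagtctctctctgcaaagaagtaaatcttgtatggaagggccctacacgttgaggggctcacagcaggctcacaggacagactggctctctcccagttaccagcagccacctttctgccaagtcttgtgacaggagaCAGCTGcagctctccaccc
Cox8a promoter (chr19:7217617-7217866, minus strand): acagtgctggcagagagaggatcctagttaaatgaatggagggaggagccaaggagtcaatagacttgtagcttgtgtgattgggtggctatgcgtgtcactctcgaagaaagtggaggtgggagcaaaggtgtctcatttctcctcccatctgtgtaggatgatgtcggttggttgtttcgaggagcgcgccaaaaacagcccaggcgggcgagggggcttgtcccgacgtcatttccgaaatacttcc
Cox6a1 promoter (chr5:115348959-115349208, minus strand): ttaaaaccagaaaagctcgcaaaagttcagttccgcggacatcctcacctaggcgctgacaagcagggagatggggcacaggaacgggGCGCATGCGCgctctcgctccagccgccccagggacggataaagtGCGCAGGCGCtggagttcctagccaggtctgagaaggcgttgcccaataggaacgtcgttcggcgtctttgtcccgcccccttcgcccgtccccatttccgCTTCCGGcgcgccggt
The Cox8b window holds 1 E-box and 1 CpG, with 47.2% G and C. The Cox8a window holds 11 CpG and none of these letters. The Cox6a1 window holds 26 CpG, 2 NRF1 matches and 1 ETS match. Cox7a1, the other muscle form with a window, has 4 CpG and 0 matches to these motifs, the E-box included, and Cox7a2 has 14 CpG and 0 matches.

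Such windows were on hand for 66 of the 84 members, which Cox6a2 was not among. The median window of the members held 14 CpG, and that of all detected protein-coding genes 15. NRF1 is a factor long linked to respiratory chain genes, and its motif was present for 13 of 66 members, or 19.7%, against 8.89% of detected protein-coding genes and 3.74% of all windows. Of all protein-coding genes with a window, 6.09% held it. For each motif a gene was counted where any of its windows held a match, while the share of all windows counts single windows. The ETS motif was present for 12 members, or 18.2%, against 15.0% of detected genes and 6.91% of all windows. The YY1 motif AAGATGGCG was present for 1 member, or 1.52%, against 1.31% and 0.606%. The E-box was present for 6 members, or 9.09%, against 14.6% and 13.0%, and TATAAA for 6, or 9.09%, against 7.98% and 12.4%. The E-box and TATAAA were chosen with the windows in view. These matches describe letters, not binding.

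The partners of these genes were read for context. Of the 13 subunits encoded by mitochondrial DNA, 13 passed the detection bar, at a median of 1952 TPM and led by mt-Atp8 with 36944 and 40517 TPM on a transcript of 204 nucleotides, then mt-Co1 with 4186 and 5589 TPM and mt-Co3 with 4042 and 4759 TPM. Of these 13, 3 were higher in replicate 1 and 10 in replicate 2 by TPM, while by CPM with TMM scaling 6 were higher in replicate 1 and 7 in replicate 2. Among those that turned was mt-Atp8, which had 38518 and 21191 counts and a log2 ratio of 0.75 by that scaling. By counts mt-Atp8 stood below mt-Co1, which had 422648 and 514598 in replicates 1 and 2. The lead of mt-Atp8 by TPM therefore rests on the length scaling. Cycs, the cytochrome c of body tissues (named after its values were seen), had 29.8 and 16.9 TPM, and Cyct, the testis form, had 0.12 and 0.10 TPM. Of the 8 genes listed with cytochrome c, 7 were detected. The highest were Chchd2, a regulator of respiration, with 643 and 926 TPM, Ndufab1, the acyl carrier protein of complex I, with 105 and 121 TPM, and Higd2a, a supercomplex factor, with 96.4 and 111 TPM.

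Assembly factors had a lower median than the subunits they place, with some overlap in range. Of 46 factors, 45 were detected, and the median of the 46 was 19.6 TPM, where that of the subunits was 166 TPM and that of detected genes 19.9 TPM. Of complex I, 14 of 14 passed the bar at a median level of 14.9 TPM, led by Foxred1, Ndufaf8 and Ecsit at 39.3, 30.5 and 30.0 TPM. Of complex II, 4 of 4 had a median of 15.8 TPM, led by Sdhaf4, Sdhaf2 and Sdhaf1 at 31.1, 16.1 and 15.6 TPM. Of complex III, 6 of 6 had a median of 24.9 TPM, led by Uqcc2 at 201 TPM, then Uqcc3 and Uqcc1 at 34.8 and 30.8 TPM.

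Of 19 complex IV factors, 18 passed the bar at a median level of 27.5 TPM, led by Cox14, Coa3 and Cox16 at 146, 121 and 74.7 TPM. Pet117 was the exception with 0.20 and 0 TPM. Of complex V, 3 of 3 had a median of 34.7 TPM, with Tmem70 at 46.7 TPM, Atpaf2 at 34.7 TPM and Atpaf1 at 27.0 TPM.

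Transcriptional regulators of mitochondrial genes passed the bar in 10 of 10 cases, at a median level of 22.3 TPM. The highest were Nrf1 with 58.8 and 68.7 TPM, Pprc1, a relative of PGC-1alpha, with 53.0 and 64.2 TPM, and Polrmt, the mitochondrial RNA polymerase, with 53.1 and 61.2 TPM in replicates 1 and 2. The lowest were Ppargc1a, which encodes PGC-1alpha, with 1.89 and 2.10 TPM and Ppargc1b with 1.35 and 1.34 TPM (both named after their values were seen).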

How the data were processed

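The data were RNA-seq tables of 2 libraries of embryonic limb at day 14.5. The authors deposited, per the file headers, an expected count, a TPM and a posterior mean TPM for each gene and transcript, and each transcript's share of its gene in percent. The tables were made against mm10 with GENCODE M4, per the text file deposited with them. The program and its version are not given in the sources used here. Gene names and coordinates came from GENCODE M21 on the same assembly, and 884 of 43346 gene rows had no match there. Library sizes leave out the rows of spike-ins, phiX and tRNA.

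From the deposited TPM, log2(TPM + 1) was fitted with an intercept in limma 3.58.1 (R 4.3.3, trended empirical Bayes) over the 15057 genes whose mean reached 1 TPM or that belong to a pair. The difference of 2 genes used both moderated variances with 5.32 degrees of freedom and was adjusted by Benjamini and Hochberg over 17 pairs at 0.05. Intervals of a difference cover 95%. This fit was also run on simulated data drawn from its own variance model, with genes independent of each other. Effects that genes of a library share were not simulated, so that run does not check the p-values for them. Library ratios used deposited TPM, and CPM, computed from the deposited expected counts, used edgeR 4.0.16 TMM factors of 1.01 and 0.992 or DESeq2 1.42.0 size factors. No count test was run, since there is 1 group. The floor for a count of 0 was 3 counts. A count was called not whole at over 0.005 from a whole number.

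The text names every gene of a pair, the 3 highest and the lowest gene of each complex, members under 1 TPM or past 1.5-fold between the libraries, and the 3 highest genes of each list. Lists also have all members under 1 TPM in both libraries named, where there are 5 or fewer. The members, lists and pairs were chosen with earlier results of these data known. Alternatives varied the pseudocount, the filter, the TPM estimate, the length scaling, the trend, the fold and the detection bar, and left out each replicate.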

Additional observations from a re-analysis of the deposited data

How the results depend on the processing

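The number of pairs that differed was 13 and became 7 with no filter on low values (10 at an unadjusted p under 0.05), where the moderated degrees of freedom fell to 1.68. It was 13 to 15 under the other 5 settings. The calls lost without the filter were Cox7a2l over Cox7a2, Atp5g1 over Atp5g2 and over Atp5g3, Sdhc over Sdhd, Uqcrc1 over Uqcrc2, and Cox5a over Cox5b. Calls gained were Ndufv1 over Ndufv2 and Atp5a1 over Atp5b among genes of 10 TPM or more, the first also by CPM and the second also without the trend. By CPM, Sdha over Sdhb turned to 0.98 (limma, adjusted p = 0.000531, with a range of 0.000531 to 0.293 over its alternatives). The log2 library ratio of Atp5b turned to 0.018 with TMM factors and 0.018 with DESeq2 factors. The cause of neither reversal was tested; the settings differ in whether counts are divided by length. The number of members past the fold was 13 at 1.5-fold and 3 at 2-fold, where the share of all genes was not computed. The muscle share of Atp5c1 was 31.5% of TPM and 28.9% of counts. Leaving out a replicate gave 82 to 82 detected members, a median level of 155 to 190 TPM and an Atp5c1 share of 31.0% to 32.1%. Groups could not be paired by replicate, because the samples form 1 group. The genes of a pair do share their libraries; the standard errors add both genes' variances and leave this out, and an exact two-sided test on the 2 within-library differences cannot go below p = 0.5. With 2 libraries, differences under about the intervals given cannot be resolved, and Cox7a1, Cox7b2 and Cox8c rest on 29 counts or fewer in each library.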
